A study of Homo sapiens with 12 samples.

Results

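The leukocyte beta-2 integrins are described here through the H3K4me2 peaks around their 5 genes, ITGAL, ITGAM, ITGAX, ITGAD and ITGB2. The genes were taken from a named list, and the peaks were those in each gene body or within 50 kb of the gene's canonical start site in the GENCODE annotation. They are 5 of 19951 protein-coding genes with such a start site, and their windows held 53 of the 84577 regions formed by merging the peaks of all lists. ChIP-seq was used to map H3K4me2, a mark of promoters and enhancers, in U-937, an established human acute myeloid leukaemia line of the monocytic lineage. The cells were treated for 24 hours with the vehicle DMSO, with all-trans retinoic acid (ATRA) at 0.1 µM, with Corin at 0.1 µM, or with ATRA and Corin at 0.1 µM each. ATRA is a ligand of the retinoic acid receptors, and Corin is a dual inhibitor of the demethylase LSD1 and the histone deacetylases in the CoREST complex. Each treatment had 2 H3K4me2 libraries and 1 input library, 12 libraries in all, and gave 1 pooled peak list. The design had 1 cell line and no values per library, so the spread between replicates is not known and no test between treatments was possible.

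Beta-2 integrins are heterodimers in which the common beta chain CD18, made from ITGB2, pairs with 1 of 4 alpha chains. ITGAL encodes CD11a of LFA-1, which binds the ICAM adhesion molecules and holds leukocytes to endothelium and to other cells. ITGAM encodes CD11b of Mac-1, also called complement receptor 3, and ITGAX encodes CD11c of complement receptor 4. Both are found on monocytes, macrophages, neutrophils and dendritic cells, and CD11b is a common surface marker of myeloid differentiation. ITGAD encodes CD11d, which is found on some tissue macrophages. The receptors reach the surface only as pairs, so CD18 is needed for all of them.

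The 4 lists differed in length, from 65172 peaks with DMSO to 66385 with ATRA, 73997 with Corin and 83969 with ATRA and Corin together. The depth recovered from the deposited values, relative to DMSO, was 1.02 with ATRA, 1.10 with Corin and 1.20 with the combination. The fold enrichment and −log10 q of a peak come from the authors' peak caller and describe it within its own list only. To set lists side by side, the reads at a summit were divided by the genome-wide mean of the same libraries. This quantity is called the height, and its 95% Poisson intervals cover counting error only. The height is not corrected for the local input. For a region it is that of the tallest peak. A height also depends on how much of a library lies in peaks, so ratios to DMSO are to be read against the medians of the series. With ATRA, Corin and the combination these were 1.30, 0.75 and 0.98 over start-site regions, 1.29, 0.91 and 1.16 over all regions that the 4 lists share, and 1.28, 0.99 and 1.26 over those more than 1 kb from any start site. In pooled cells, a larger share of marked cells and more mark per cell cannot be told apart. Of 8 myeloid marker genes, among them SPI1, CSF1R and CD33, all 8 had a peak within 1 kb of the start site in each list, whereas the T cell markers CD3E and CD3D, the B cell markers MS4A1 and PAX5, and the erythroid markers GATA1 and HBB had none. Peaks near the start sites of CD2, BCL11B, CD79A and KLF1 were present in each list.

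All 5 integrin genes carried H3K4me2 in every list, and the length under peaks in their windows was shortest with DMSO and longest with the combination. Over the 5 genes, peaks covered 62.3 kb with DMSO, 76.8 kb with ATRA, 91.8 kb with Corin and 113 kb with ATRA and Corin. These lengths were 1.23, 1.47 and 1.81 times that of the DMSO list. The number of regions was 27, 29, 36 and 49 in the same order. In all, 27 of the 53 regions were held by all 4 lists, 50.9% compared with 51.2% of all regions of the series. Another 16 regions, 30.2%, were held by the combination list alone, compared with 16.3% of all regions.

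**Figure D1:**
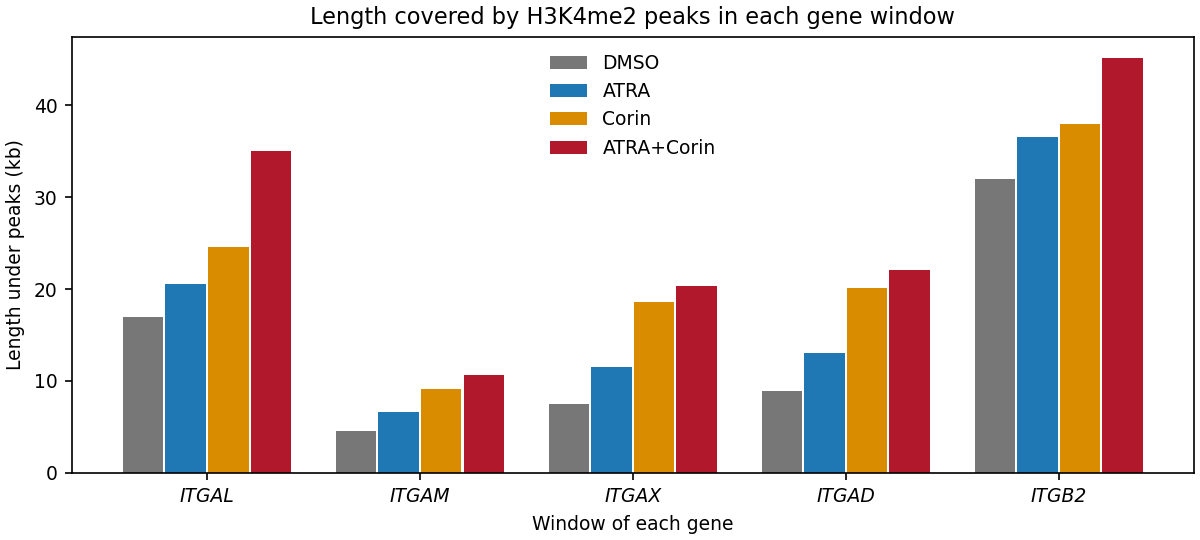
Length under H3K4me2 peaks (kb) in the window of each gene, with 1 bar per list; there are no replicate values, so the bars have no error. ITGB2 had the longest covered length in each list (32.0 to 45.2 kb), and ITGAM the shortest (4.54 to 10.7 kb). The ITGAX and ITGAD windows overlap each other and share peaks.

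The increase in length differed between genes, as the plot of covered length by gene shows. The ITGAX window held 7.50 kb under peaks with DMSO, 11.5 kb with ATRA, 18.6 kb with Corin and 20.3 kb with both. ITGAM had the lowest values, at 4.54, 6.63, 9.08 and 10.7 kb. ITGAL had 17.0, 20.5, 24.6 and 35.0 kb. ITGB2 had 32.0, 36.6, 38.0 and 45.2 kb and was above 99.1% of protein-coding genes with DMSO alone. On the log2 scale, with 1000 bp added to each length, the combination differed from DMSO by 1.32 for ITGAX, 1.23 for ITGAD, 1.07 for ITGAM and 0.49 for ITGB2, beside a median of 0.35 over all protein-coding genes. Without that addition, ITGAL had 2.06 times the DMSO length with the combination. With Corin the log2 differences, again with 1000 bp added, were 1.20 for ITGAX, 1.10 for ITGAD, 0.86 for ITGAM, 0.51 for ITGAL and 0.24 for ITGB2, beside a median of 0.23, so that ITGB2 lay at the median. With ATRA they were 0.56, 0.51, 0.46, 0.26 and 0.19 in the same order, beside 0.09. The 3 comparisons share the DMSO list.

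Most regions that appeared with a treatment were weak, and their number was read against the share of all regions that did so. ATRA added 2 regions to the 27 of DMSO and removed 0, where 16.4% of all regions of those lists were gained and 7.58% were lost. Those 2 were 6.90% of the 29 regions held by either list. Corin added 9 of 36 beside a background of 22.4%, and removed 0 beside 7.46%. The combination added 22 of 49 (44.9%) beside a background of 34.9%, and removed 0 beside 4.55%. Against ATRA alone it added 20 of 49 and removed 0, beside backgrounds of 28.4% and 4.97%. Against Corin alone it added 17 and removed 4 of 53, beside 24.0% and 6.59%. The share gained was thus below the background with ATRA, near it with Corin and above it with the combination in the full lists, and none of the 27 DMSO regions was absent from another list. When only peaks with a −log10 q of 5 or more were kept, the combination added 10 of 36 (27.8%) beside a background of 29.6%, and Corin 3 of 29 (10.3%) beside 20.2%. With lists cut to equal numbers of peaks, the combination added 11 of 38 (28.9%) beside 21.3%, and Corin 4 of 31 (12.9%) beside 16.6%. So the share gained with the combination was above the background with equal numbers of peaks and not among the stronger peaks. The 22 regions gained with the combination had a median −log10 q of 4.40, compared with 92.8 for the 27 regions it shared with DMSO, and 9 of them reached 5. None of the 22 lay within 1 kb of a member's start site, 11 lay in a member's gene body, and 13 lay within 1 kb of a region that DMSO already held.

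ITGAM, ITGAX and ITGAD lie side by side on chromosome 16, all on the plus strand. ITGAM spans chr16:31259967-31332892, ITGAX chr16:31355134-31382999 and ITGAD chr16:31393335-31426505 (GRCh38). ITGAX starts 22.2 kb after the end of ITGAM, and ITGAD starts 10.3 kb after the end of ITGAX. Their joined windows span chr16:31209975-31443335, 233 kb, and held 22 regions. ITGAL is on the same chromosome, but its window ends 686 kb before this locus and is described apart. With DMSO the locus had 12 regions and 13.4 kb under peaks, and with ATRA it had the same 12 regions over 19.7 kb. Corin gave 18 regions over 29.2 kb, and the combination 19 regions over 32.8 kb. ATRA thus added no region to this locus, and its longer coverage lay within the regions that DMSO held, as wider peaks and some further peaks.

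**Figure D2:**
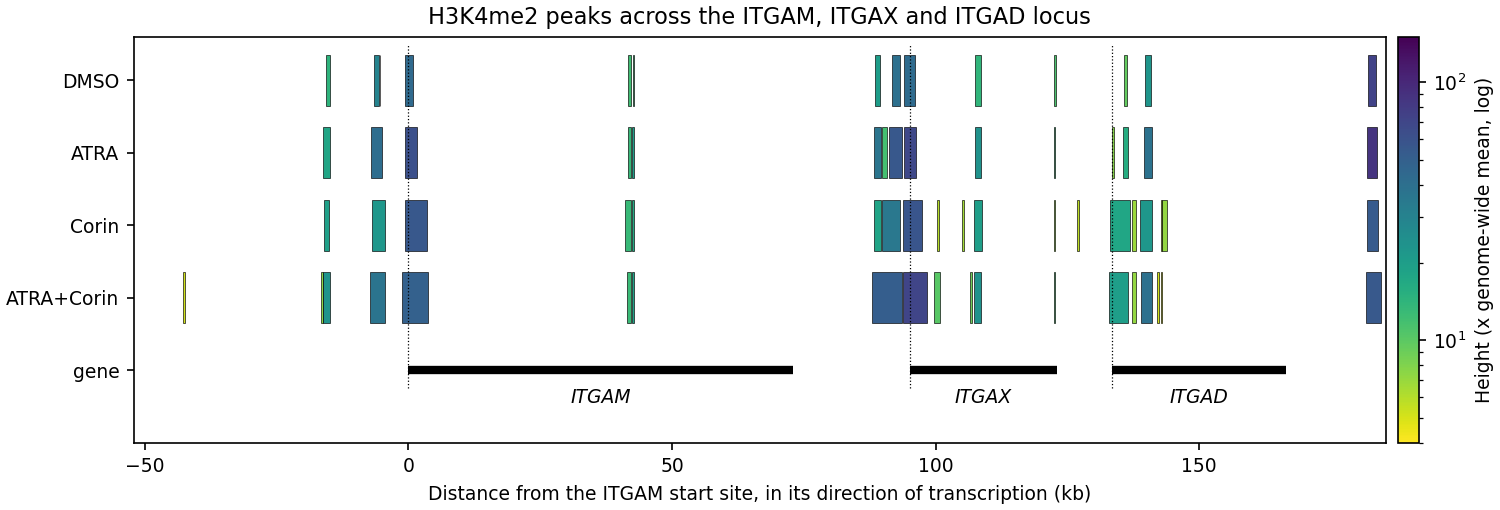
H3K4me2 peaks (boxes) of the 4 lists against the distance from the ITGAM start site (kb), coloured by height on a log scale; black bars are gene bodies, and dotted lines are start sites. The 12 regions of the DMSO list recur in each list, and the boxes at the 3 start sites are wider with Corin and with the combination. Regions within ITGAX and ITGAD that the DMSO and ATRA lists lack appear as narrow boxes of low height with Corin or the combination.

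The ITGAM start site, at chr16:31259975, lay under a single peak in each list, over exons 1 to 2 at its longest. The ITGAM promoter sequence from RefSeq lies at chr16:31259725-31260024 on the plus strand (GRCh38.p14), from 250 bases before the start to 50 after it. It is shown because ITGAM was the only 1 of the 5 genes with a promoter in the sequence set used. The peak over it was also the one that lengthened most into the gene among the 5 start-site peaks. Capitals mark matches on either strand to GAGGAA (the PU.1 core), GGGCGG (the Sp1 box), AGGTCA (the retinoic acid receptor half-site) and TGTGGT (the RUNX core).
ITGAM promoter: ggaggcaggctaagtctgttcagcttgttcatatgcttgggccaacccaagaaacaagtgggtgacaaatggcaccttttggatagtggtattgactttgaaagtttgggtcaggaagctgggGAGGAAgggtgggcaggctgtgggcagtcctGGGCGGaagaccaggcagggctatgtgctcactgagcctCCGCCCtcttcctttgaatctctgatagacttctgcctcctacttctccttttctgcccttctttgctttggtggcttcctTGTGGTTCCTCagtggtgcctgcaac

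Counted from the 5′ end of this promoter, GAGGAA was matched at bases 124 to 129 as written and at bases 280 to 285 on the opposite strand. GGGCGG was matched at bases 155 to 160 as written and at bases 194 to 199 on the opposite strand. TGTGGT was matched at bases 275 to 280, sharing 1 base with the second GAGGAA match, and AGGTCA was not matched. Of 35116 RefSeq promoters of the same length, 27.9% held GAGGAA, 45.0% GGGCGG, 13.8% AGGTCA and 13.1% TGTGGT. These are matches of letters and say nothing of binding.

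Over the ITGAM promoter, the peak was 1642 bp long with DMSO, 2264 bp with ATRA, 4155 bp with Corin and 4854 bp with the combination. Its upstream edge lay 670, 659 and 676 bp before the start site in the first 3 lists and 1118 bp before it with the combination. Its downstream edge lay 971 bp after the start with DMSO, 1604 bp with ATRA, 3478 bp with Corin and 3735 bp with both. In the Corin list the peak thus reached 2507 bp further into the gene than in the DMSO list. This extension was longer than in 99.4% of 12221 genes with a start-site region, where the median was 249 bp. The height was 43.6 (36.3 to 51.8) with DMSO, 61.8 (53.1 to 71.4) with ATRA, 55.7 (47.8 to 64.5) with Corin and 49.5 (42.4 to 57.5) with the combination. The height with Corin was 1.28 times that with DMSO (1.01 to 1.62), where the median over all start-site regions was 0.75. A pair of regions upstream of ITGAM were also held by all lists. The nearer one, 4415 to 7196 bp before the start, was 1185 bp long with DMSO, 2094 bp with ATRA, 2425 bp with Corin and 2721 bp with both. Within the gene, a pair of neighbouring intron regions at 41175 to 42900 bp had heights from 12.4 to 20.3, and each interval of the ratio to DMSO included 1.

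At ITGAX the start-site peak, over exons 1 to 5 at its longest, was 2092, 2366, 3449 and 4464 bp long with DMSO, ATRA, Corin and the combination. Its upstream edge moved little, from 1206 to 1310 bp before the start, and its downstream edge moved from 885 bp with DMSO to 1082, 2155 and 3153 bp. The height was 42.9 with DMSO (35.7 to 51.1), 68.2 with ATRA (59.1 to 78.3), 57.9 with Corin (49.8 to 66.8) and 71.3 with both (62.7 to 80.7). All 3 treatments were above DMSO at this start site, by 1.59 times (1.27 to 2.00) with ATRA, 1.35 times (1.07 to 1.71) with Corin and 1.66 times (1.34 to 2.08) with both. The medians over all start sites were 1.30, 0.75 and 0.98. Relative to the start, the summit lay at −262 bp with DMSO, −266 bp with ATRA, 154 bp with Corin and 593 bp with both. The ratios with Corin and with the combination thus compare the tallest summits of the peak and not the same place.

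Directly upstream of ITGAX, a region 1549 to 7257 bp before the start holds the start site of a lncRNA gene, ENSG00000289930. It had 2 peaks over 2334 bp with DMSO and 3 peaks over 4756 bp with ATRA. With Corin it had 2 peaks over 4750 bp, and with the combination 1 peak of 5709 bp. An intron region at 12079 to 13526 bp had heights of 14.1, 23.6, 20.0 and 23.5 in the same order. Its ratio to DMSO was 1.68 with ATRA (1.13 to 2.53) and 1.67 with the combination (1.13 to 2.49). Relative to the ITGAX start, the summit lay at 12558 bp with DMSO, 13232 bp with ATRA, 13159 bp with Corin and 13207 bp with both. These ratios thus also compare different places within the region. Of the weak regions in the ITGAX body, the one over exons 6 to 8 was held by Corin (−log10 q 1.95) and the combination (9.23).

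ITGAD had the weakest start-site mark of the 5 genes. With DMSO the nearest peak began 2358 bp after its start site and was 523 bp long, with 28 reads at the summit. With ATRA a further short peak began 8 bp after the start site, but its −log10 q was 0.519, close to the lowest value in that list, 0.490. With Corin a single peak of 3735 bp ran from 266 bp before the start to 3468 bp after it, over exons 1 to 2. With the combination the peak was 3503 bp long and ran from 421 bp before to 3081 bp after the start. Thus the start site lay under a peak in the 2 lists with Corin and in neither of the others. The tallest summit had a height of 9.61 (6.38 to 13.9) with DMSO, 15.9 (11.7 to 21.1) with ATRA, 17.5 (13.2 to 22.7) with Corin and 20.0 (15.6 to 25.3) with both. The ratio to DMSO was 1.82 with Corin (1.14 to 2.98) and 2.09 with the combination (1.33 to 3.36). The DMSO peak belongs to this region only because the longer peaks of the other lists join it to the start site, so these ratios compare the tallest summits of a wide region and not the same place.

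The ITGAD intron held a stronger region, chr16:31398725-31401103, 5390 to 7768 bp after the start. Its height was 22.6 with DMSO, 38.5 with ATRA, 21.9 with Corin and 39.5 with the combination. Height was thus higher in the 2 lists with ATRA than in the 2 without it. The ratios were 1.70 (1.24 to 2.34), 0.97 (0.68 to 1.37) and 1.74 (1.29 to 2.38), where the medians of regions over 1 kb from any start site were 1.28, 0.99 and 1.26. Its length was greatest with Corin, at 1190 bp with DMSO, 1565 bp with ATRA, 2379 bp with Corin and 2109 bp with both.

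ITGAL spans chr16:30472658-30523567 on the plus strand, with 16 regions in its window. Its start-site peak, over exons 1 to 4 at its longest, was 2515, 2941, 4048 and 5208 bp long in the order of DMSO, ATRA, Corin and both. The downstream edge lay 1841, 1910, 2889 and 3742 bp after the start. The height was 83.4 with DMSO (73.2 to 94.5), 109 with ATRA (97.8 to 122), 62.5 with Corin (54.2 to 71.8) and 73.3 with both (64.6 to 82.8). Its ratios to DMSO with ATRA (1.31) and Corin (0.75) lay at the medians of all start sites, 1.30 and 0.75. So the peak was longer but not taller with Corin. A second strong region, 11448 to 20314 bp inside the gene over exons 9 to 11, includes the start of the lncRNA gene ENSG00000261346. It covered 5143 bp with DMSO and 8739 bp with the combination, while its height was 62.4 and 46.4. Between these 2 regions the combination list alone had 5 weak peaks, with −log10 q from 0.945 to 7.71. Upstream, regions at the start sites of DCTPP1 and SEPHS2 were held by every list.

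ITGB2 spans chr21:44885953-44931989 on the minus strand, and its canonical start site lies at chr21:44920899 within the annotated gene, because other transcripts start further upstream. Its start-site region, chr21:44913082-44933202, was the longest of the 5. With DMSO it had 5 peaks over 14801 bp, with ATRA 7 over 16560 bp and with Corin 6 over 18654 bp, and the combination list had 1 unbroken peak of 20121 bp. The outer edges hardly differed between the first 3 lists, at 11822 to 11842 bp before and 7774 to 7811 bp after the start, so the added length filled gaps between peaks. The region also holds the start sites of ITGB2-AS1, an antisense lncRNA, and ENSG00000273027, and its mark cannot be assigned to 1 of them. Its height was 128 with DMSO (116 to 142), 143 with ATRA (129 to 157), 71.6 with Corin (62.6 to 81.5) and 97.0 with both (87.0 to 108). The ratio with Corin was 0.56 (0.47 to 0.66), below the median of 0.75. Relative to the start, the tallest summit lay at 975 bp with DMSO, 989 bp with ATRA, 6848 bp with Corin and −7083 bp with both. The heights with Corin and with the combination are thus not from the same place as that with DMSO. The Corin peak over the start site itself had a height of 63.2.

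**Figure D3:**
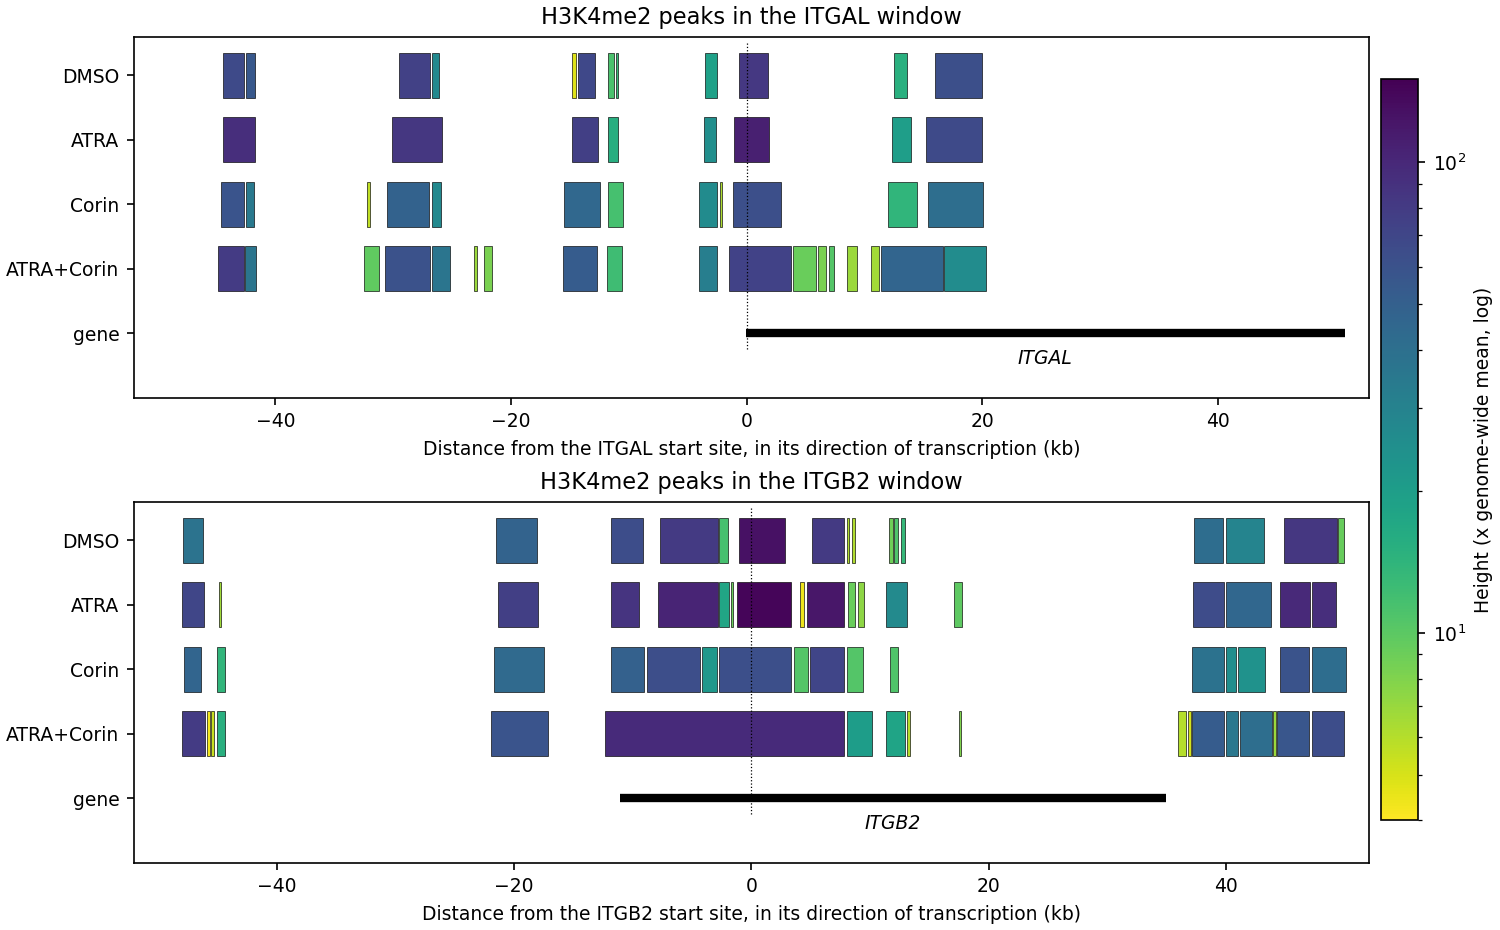
H3K4me2 peaks (boxes) of the 4 lists in the windows of ITGAL (above) and ITGB2 (below), against the distance from the start site of each gene in its direction of transcription (kb), coloured by height on a log scale. At ITGB2 the separate peaks around the start site are 1 peak of 20121 bp with the combination, and at ITGAL narrow boxes of low height fill the gap between 2 strong regions with the combination only.

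The ITGB2 window also held other regions that differed between the lists. An intron region 11343 to 13369 bp after the start, chr21:44907530-44909556, had a height of 13.4 with DMSO, 27.0 with ATRA, 10.9 with Corin and 18.0 with both. Its 39 reads with DMSO and 80 with ATRA gave a ratio of 2.02 (1.36 to 3.04), above 96.5% of the shared regions over 1 kb from any start site. With Corin the ratio was 0.82 (0.50 to 1.33) and with the combination 1.35 (0.89 to 2.06), both with intervals that include 1. After the start, the tallest summit lay at 12802 bp with DMSO, 12152 bp with ATRA, 12142 bp with Corin and 12167 bp with both. Another DMSO peak of this region, with fewer reads, had its summit at 12162 bp. The 3 ratios of this intron region thus compare its tallest summits and not the same place. A region 45985 to 47973 bp upstream of ITGB2 had heights of 37.7, 69.9, 46.9 and 79.9 in the 4 lists, with a ratio of 1.85 with ATRA (1.46 to 2.35), 1.24 with Corin (0.97 to 1.60) and 2.12 with both (1.69 to 2.66). It lies beyond SLX9 and LINC01547, whose start sites share a region between it and ITGB2, so the gene it belongs to is not known. Next to it, chr21:44965222-44965935 was absent with DMSO and had a −log10 q of 2.45 with ATRA, 14.9 with Corin and 21.6 with the combination, the highest of the 22 regions gained. A region over exon 2, at another annotated start of ITGB2, had heights of 6.18, 9.11, 10.6 and 20.3. Its ratio with the combination was 3.29 (1.94 to 5.87), the highest of the 27 shared regions, but it rested on 18 reads with DMSO. In exon 5 a peak was held with ATRA (−log10 q 9.07) and with the combination (5.40), and by neither other list.

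Windows of 200 bases at the ATRA summit are shown for the region of the chromosome 16 locus and of the ITGB2 window in which height differed most with ATRA, among regions held by all lists and over 1 kb from any start site. Both are on the plus strand of GRCh38 and overlap no annotated exon. The first is chr16:31400318-31400517 in the ITGAD intron, and the second is chr21:44908647-44908846 in the ITGB2 intron. Capitals mark the same 4 motifs.
ITGAD intron: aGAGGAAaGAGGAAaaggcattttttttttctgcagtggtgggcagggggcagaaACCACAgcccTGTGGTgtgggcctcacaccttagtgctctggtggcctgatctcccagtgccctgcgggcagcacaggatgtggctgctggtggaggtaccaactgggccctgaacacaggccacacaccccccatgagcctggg
ITGB2 intron: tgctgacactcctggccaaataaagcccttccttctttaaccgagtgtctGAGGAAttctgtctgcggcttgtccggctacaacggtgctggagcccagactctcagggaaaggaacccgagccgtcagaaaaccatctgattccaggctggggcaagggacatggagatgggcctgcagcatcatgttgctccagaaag

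The ITGAD window held GAGGAA at bases 2 to 7 and 9 to 14, and TGTGGT at bases 66 to 71 as written and 56 to 61 on the opposite strand. The ITGB2 window held GAGGAA once, at bases 51 to 56. Neither held AGGTCA or GGGCGG. Of the 200-base windows at all 66385 ATRA summits, 18.6% held GAGGAA, 14.0% TGTGGT, 15.6% AGGTCA and 13.9% GGGCGG. In the ITGAL window the region chosen in the same way had a ratio of 1.30 with ATRA, near the median of 1.28, and its sequence is not shown. None of these motifs was matched in the 200 bases at its ATRA summit.

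Of the 5 genes, 4 had a DMSO peak within 1 kb of the start site, and ITGAD did not. Among genes with a peak of both lists there, the height with Corin was above DMSO at ITGAM and ITGAX, with ratios larger than in 97.3% and 98.2% of 12106 genes, and below DMSO at ITGAL and ITGB2. At ITGAX and ITGB2 the tallest summits with Corin and with DMSO lay at different places. With ATRA these 4 were above DMSO, at 1.11 to 1.59 times, around the median of 1.30. Start-site length was at least 2-fold that of DMSO for 3 of these 4 genes with the combination (ITGAM 2.96, ITGAX 2.13 and ITGAL 2.07), where 3.72% of genes reached this. With Corin 1 of 4 did (ITGAM 2.53), beside 1.52%, and with ATRA 0 of 4, beside 0.709%. The median ratio over the 4 genes was 1.15 with ATRA, 1.63 with Corin and 2.10 with the combination, compared with 1.04, 1.15 and 1.19 over all such genes. ITGAD had ratios of 2.52, 7.14 and 6.70, but its DMSO length is that of the peak 2358 bp away, so they are given as values only. With regions joined in this way counted for all genes, 1, 2 and 4 of the 5 genes reached 2-fold with ATRA, Corin and the combination, ITGAD being 1 of them each time, beside backgrounds of 0.808%, 1.62% and 3.88%. The start sites of 4 members lay under a peak with DMSO and with ATRA, and all 5 with Corin and with the combination. Over all protein-coding genes this share was 47.3%, 48.1%, 38.0% and 38.0%. The share of all genes with a peak within 1 kb of the start site differed little, at 61.3%, 61.5%, 61.5% and 62.3%. The lower share with Corin thus concerns the start base itself.

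**Figure D4:**
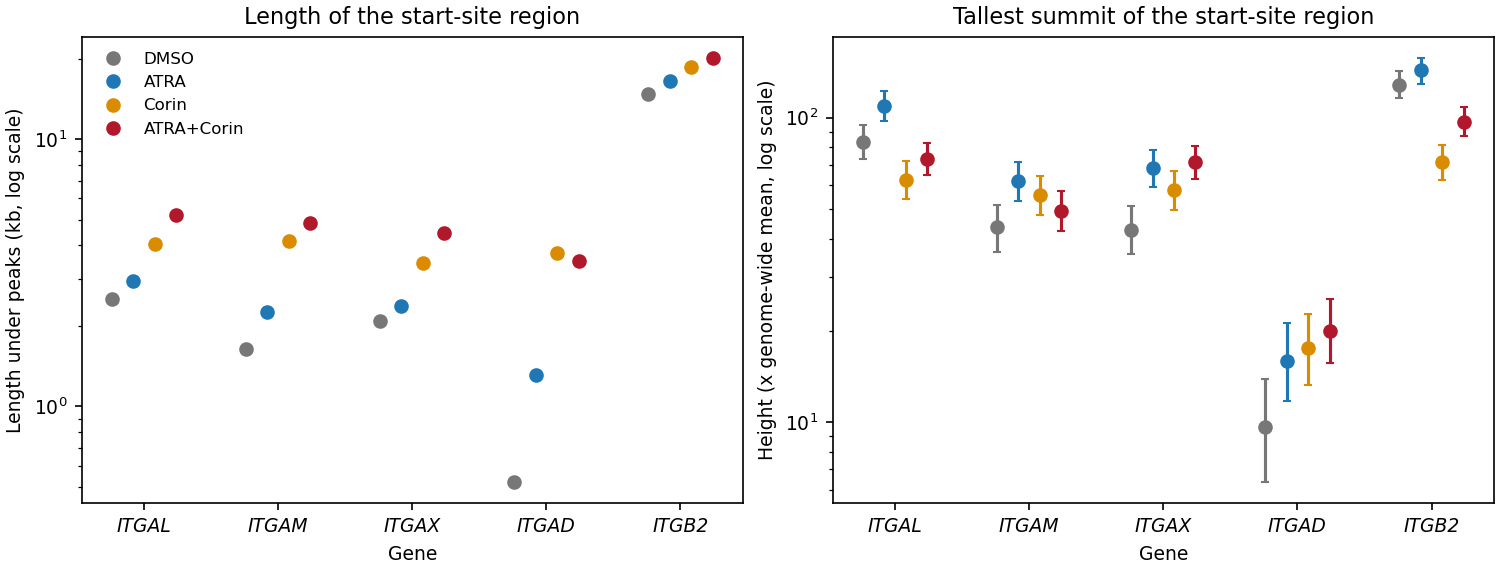
Length under peaks (left, kb, log scale) and height of the tallest summit (right, times the genome-wide mean, log scale) of the start-site region of each gene, with 1 point per list; bars are 95% Poisson intervals of the reads at the summit. Length was greater with Corin and the combination than with DMSO at each of the 5 genes, and height with Corin was above DMSO at ITGAM, ITGAX and ITGAD and below it at ITGAL and ITGB2.

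Among the 27 regions held by all lists, ATRA gave a height above that of DMSO in 27, beside 87.2% of the 43264 regions of the series that all lists held. The interval of the ratio lay above 1 in 14 of 27, beside 37.9% of the series, and below 1 in 0, beside 0.749%. The median ratio was 1.41, compared with 1.29 over the series. With Corin the ratio was above 1 in 10 of 27, beside 38.3%, with the interval above 1 in 3, beside 5.91%, and below it in 7, beside 24.6%. The 3 above were the start-site regions of ITGAM, ITGAX and ITGAD, those of ITGAX and ITGAD with summits at different places. Of the 7 below, 4 were in the ITGAL window, 2 in the ITGB2 window and 1 at the start site of ZNF843, at the far end of the chromosome 16 locus. The median was 0.89, beside 0.91 over the series. With the combination the ratio was above 1 in 19, beside 67.1%. The interval lay above 1 in 11, beside 25.5%, and below it in 6, beside 8.65%, and the median was 1.26, beside 1.16. These intervals cover counting error only, and the spread between libraries is not in them. In some regions the tallest summits of the lists lay at different places. The deposited fold over input was lower with ATRA than with DMSO at some of the 27 regions and higher at others.

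**Figure D5:**
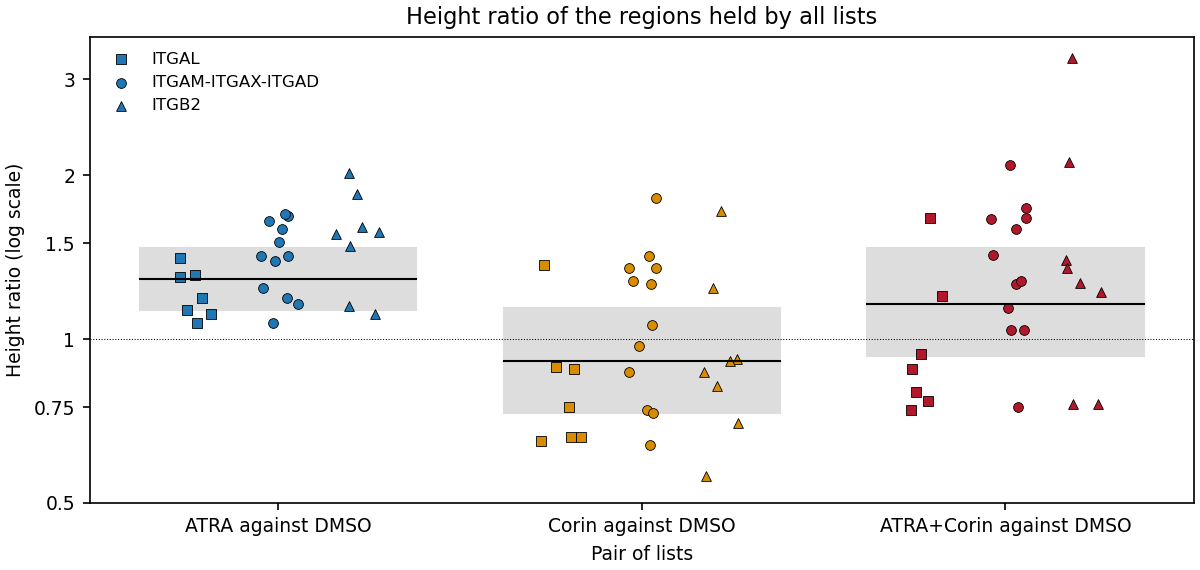
Ratio of the height to that with DMSO (log scale) for the 27 regions held by all lists, 1 point per region and treatment, with a marker for each locus; grey boxes are the quartiles and black lines the medians of the 43264 such regions of the series. All 27 points with ATRA lie above 1, and with Corin the chromosome 16 locus has 7 of its 12 regions above 1 and the ITGAL window 1 of 7.

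The genes whose covered lengths followed the members' most closely were found on other chromosomes or other parts of chromosome 16. For ITGAM they were RAPGEF2 and JAK2, the latter with 4.42, 6.57, 8.62 and 10.9 kb with DMSO, ATRA, Corin and both. For ITGAX CLEC1B is given, and they were for ITGAD ERI2 and SAGSIN1, for ITGAL RPS6KA1 and FLOT1, and for ITGB2 IFITM10 and HPCAL1. Likeness was the distance over the log2 covered length with DMSO and the 3 log2 ratios to it, with 4 lists as the only points. The distance was smallest for IFITM10 (0.0598) and largest for SAGSIN1 (0.169).

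Genes that act with the beta-2 integrins were compared through the length of the start-site region, joined regions included. Over all protein-coding genes with such a region, 1.62% were at least 2-fold longer with Corin and 3.88% with the combination. Of 7 ligand genes (ICAM1 to ICAM5, F11R and JAM3), 6 had a start-site region, ICAM4 and ICAM5 sharing 1, and 2 of these were at least 2-fold longer with Corin. ICAM2, an endothelial and leukocyte ligand of LFA-1, went from 1518 bp with DMSO to 2937 bp with ATRA, 6854 bp with Corin and 6928 bp with both. ICAM3, a ligand on resting leukocytes, had 1229, 1435, 3491 and 3551 bp. ICAM1, the ligand induced by inflammation, had 3768, 4027, 4007 and 5037 bp. Of 10 genes of integrin activation with such a region, among them FERMT3 (kindlin-3), TLN1 (talin) and RASGRP2, 1 was at least 2-fold longer with Corin. This was SKAP2, an adaptor, with ratios of 2.18 with Corin and 2.28 with the combination. FERMT3 stayed at 1.08, 1.14 and 1.20 and TLN1 at 1.02, 1.09 and 1.10. Of 9 signalling genes, such as SYK and FGR, 0 were longer by 2-fold with Corin and 1 with the combination, VCL, which encodes vinculin (2.73). Among the 21 other integrin genes, 15 had a region to compare with the combination and 2 were at least 2-fold longer, ITGA6 (3.65) and ITGB7 (2.65). Medians with the combination were 1.47 for the ligands, 1.53 for activation, 1.26 for signalling and 1.32 for the other integrins, beside 1.19 over all genes. A region within 1 kb of the start site was lost at RAP1B, a GTPase of integrin activation, with Corin and with the combination, and at ITGA2B, the platelet alpha chain, with ATRA and with Corin. At RAP1B the length of the start-site region still rose, from 2605 bp with DMSO to 3982 bp with Corin and 4949 bp with both. At ITGA2B a peak still covered the start site with ATRA (527 bp, 603 bp with DMSO), and with Corin no length was left.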

How the data were processed

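H3K4me2 ChIP-seq and input libraries of U-937 cells were grouped by treatment from the sample titles. The submitters' processing notes name Trimmomatic, Bowtie2, Picard, MACS2 and hg38; their versions and settings are not given in the sources used here. The authors deposited 1 peak list per treatment, which its name describes as an optimal set of overlapping peaks, so peaks are pooled calls. Each peak has a deposited fold enrichment (a ratio to input at the summit), a deposited −log10 p and −log10 q, and the authors' summit offset. Depth per library is not given by the lists.

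From each deposited fold and −log10 p, a whole number of reads, a scaling factor and a background were solved, with a pseudocount of 1 and a Poisson tail. All peaks were met within 0.001 in −log10 p, and the solver was tested on simulated data. The lists do not say whether read pairs count once, so intervals are too narrow if mates were counted apart. The lowest background gave the genome-wide mean: 2.91 reads with DMSO, 2.96 with ATRA, 3.20 with Corin and 3.49 with both. Ratio intervals are exact binomial (95%). The tallest of several summits is favoured by chance in regions with many peaks.

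Overlapping or touching peaks of the 4 lists were joined into regions. A region was gained or lost when a peak was in 1 list of a pair and not in the other. Annotation was GENCODE release 44. Start-site regions lay within 1 kb of the canonical start site. Named were the 5 genes, genes whose start site lay near a described region, the 2 nearest patterns per gene (1000 bp added to each length), and listed pathway genes with a start-site region gained or lost; other pathway genes and the regions singled out were chosen after their values were seen. A few genes that these rules name are not reported here. The members and lists were chosen with earlier results of these data known. Python 3.11.15, numpy 2.4.6, pandas 2.3.3 and scipy 1.17.1 were used.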

Additional observations from a re-analysis of the deposited data

How the results depend on the processing

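All results rest on 1 pooled list per treatment, so treatments and libraries cannot be told apart. No paired analysis was possible because the result comes from no test and the lists hold no values per replicate. Several summits held under 30 reads. In a setting called equal depth, reads and background of each peak were scaled to the lowest scaled background of the lists, not to the recovered depth. Peaks with a −log10 p under 2 were then dropped. Peaks were not called again and kept their widths, so this setting could only remove weak peaks. The lists then had 27, 29, 36 and 48 regions near the 5 genes, and ATRA, Corin and the combination gained 2, 9 and 21 against DMSO. The lists as deposited had 27, 29, 36 and 49 regions and gains of 2, 9 and 22. The settings that follow change the counts of regions near the 5 genes. The equal-depth setting, and all settings for start-site length, were added after the data were examined.

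With a −log10 q of at least 5, Corin against DMSO gained 3 and lost 1, the combination gained 10 against DMSO and 8 against ATRA, and against Corin it gained 9 and lost 1. With lists cut to equal numbers of peaks, Corin gained 4 against DMSO, and the combination gained 11 against DMSO, 9 against ATRA, and 9 with 2 lost against Corin. When peaks within 1 kb were merged, Corin had 22 regions and the combination 24. Regions gained against DMSO were then 1 with ATRA, 3 with Corin and 5 with the combination, which gained 4 against ATRA, and 4 with 2 lost against Corin.

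A window of 10 kb held 16 regions with DMSO, 17 with ATRA, 23 with Corin and 27 with both. In it ATRA gained 1 against DMSO, and the combination gained 11 against DMSO, 10 against ATRA and 8 against Corin. A window of 100 kb held 53, 55, 64 and 79 regions. In it ATRA gained 4 and lost 2 against DMSO, Corin gained 14 and lost 3, and the combination lost 2 against DMSO, 1 against ATRA and 8 against Corin. Counted as single peaks, DMSO had 42. With an overlap of 1 bp, ATRA then gained 7 and lost 1, and Corin lost 1. With an overlap of 50%, ATRA gained 7 and lost 1, Corin gained 17 and lost 1, and the combination lost 1 against ATRA. In every setting that counts merged regions, their number was lowest with DMSO and highest with the combination. As single peaks, ATRA had the fewest (41).

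The number of members with a start-site region at least 2-fold longer with ATRA, 1 (ITGAD) in the full lists, was 0 with a −log10 q of at least 5, 0 with the same number of peaks, 0 with peaks within 1 kb merged and 0 at equal depth. With Corin and with the combination this count, which includes ITGAD, stayed within 1.5 times the reported one in each setting. The number of start sites under a peak did so too.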
